A study of Mus musculus with 8 samples.

Results

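The 47 genes described here encode the subunits and regulators of the proteasome. They were taken from the 23337 genes of the deposited raw count table by name alone: a symbol starting with Psma, Psmb, Psmc, Psmd, Psme, Psmf or Psmg followed by a number, with pseudogene names left out. Psmb8 and Psmb9, which would bring the matching symbols to 49, were excluded from the set and appear below only as partners of genes in it or in a list of other proteasome proteins. By role, 8 genes encode alpha subunits of the core, 9 beta subunits, 9 the base of the cap, 8 its lid, 5 regulators of the core's opening (4 activators and the inhibitor Psmf1), and 7 assembly factors. Psmc3ip matches the naming rule but encodes a protein of meiotic recombination, and it is kept apart as a class with 1 gene.

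The proteasome is the barrel-shaped protease that degrades proteins tagged with ubiquitin. In its core, outer rings of alpha subunits gate the entrance and inner rings of beta subunits carry the cutting sites. A cap binds the core: the base of this cap holds ATPases that unfold the substrate and thread it inward, and the lid holds the enzyme that removes ubiquitin. Cells exposed to interferon replace the cutting subunits Psmb5, Psmb6 and Psmb7 with the inducible Psmb8, Psmb9 and Psmb10, and the activator formed by Psme1 and Psme2 can take the place of the cap. Maturing erythroblasts dispose of most of their proteins other than globin, and the ubiquitin-proteasome system is known to take part.

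RNA was sequenced from bone marrow of C57BL/6 mice, 4 months old, all of which carried the activating JAK2 V617F/+ allele that drives red cell overproduction. Mice were labelled Plek2+/+ or Plek2-/-, where Plek2 encodes the phosphoinositide-binding protein pleckstrin-2, and no library from mice without the JAK2 change was analysed here. TER119-positive cells, called erythroblasts below, were purified directly from marrow, and Kit-positive cells, called progenitors below, came from its lineage-negative fraction. Each of the 4 combinations of cell population and Plek2 label held 2 libraries, and the labels do not say whether these came from separate mice, so p-values measure only the spread between these samples.

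Library totals ran from 16038035 to 23521726 counts. Levels are given in CPM, counts scaled to a common library total with TMM; before that scaling a gene without counts could lie at up to 3 counts, or 0.128 to 0.187 CPM. Plek2 lay at 108 and 129 CPM in the Plek2+/+ erythroblast libraries against 48.2 and 53.1 CPM in the Plek2-/- ones. In progenitors it lay at 1.36 and 0.708 CPM under the Plek2+/+ label against 5.06 and 5.67 CPM under the Plek2-/- label, so the targeted gene went against the label in progenitors. Genotype is therefore given as a label throughout. Xist was at 2523 CPM or more in all 4 libraries labelled Plek2+/+ and at 3.60 CPM or less in all 4 labelled Plek2-/-, and the Y-linked Ddx3y showed the reverse, so sex and Plek2 label cannot be told apart. All 12 erythroblast markers tested were called higher and all 11 stem and progenitor markers lower in erythroblasts under either label. The summed level of 14 neutrophil markers was 19933 and 22977 CPM in erythroblasts labelled Plek2+/+ against 15486 and 14036 CPM in those labelled Plek2-/-, and 7663 and 4634 CPM against 19435 and 26240 CPM in progenitors. In sorted bulk samples such as these, fewer cells of a type and less RNA per cell cannot be told apart.

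The question of the first comparison was how proteasome gene levels differ between erythroblasts and progenitors that carry the same Plek2 label. Relative to the typical gene, most of them were higher in erythroblasts, but not by the same amount. The base, its assembly chaperones Psmd5, Psmd9 and Psmd10, and Psme3, Psme4 and the inhibitor Psmf1 had larger fold changes than the core median, while Psmb10 and Psme1 were lower. Of the 46 genes tested, 37 were called higher and 5 lower under the Plek2+/+ label, where 73.8% of all genes were called (36.0% higher, 37.8% lower). Under the Plek2-/- label 39 were called higher and 2 lower, where 76.7% of all genes were called (37.5% higher, 39.2% lower). A call is an adjusted p below 0.05 in edgeR's quasi-likelihood test over all genes. Psmb11, the thymus-specific beta subunit, was not tested: it had 2 counts in 1 progenitor library and 0 in the other 7.

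The calls were much the same under both labels, and 37 genes were called higher in both (32.7% of all genes), 2 lower in both (32.5% of all genes) and 7 in only 1 label or in neither. Without reference to a test, 38 of the 46 genes were higher in all 4 erythroblast libraries than in any progenitor library (36.7% of all genes), and 4 were lower in all 4 (38.2% of all genes). The median log2 fold change was 0.72 under the Plek2+/+ label, beside -0.06 for all genes tested, and 0.92 beside -0.07 under the Plek2-/- label. The neutrophil markers whose sums are given above changed sides between these contrasts, with 13 of 14 called higher in erythroblasts under the Plek2+/+ label and 14 of 14 lower under the Plek2-/- label. All 8 T and NK cell markers were called lower in erythroblasts under both labels, and their summed level was 22.2 to 38.5 CPM against 110.0 to 131 CPM in progenitors. Of 10 B cell markers, 8 were called lower under the Plek2+/+ label and 10 under the Plek2-/- label, with sums of 146 to 197 CPM against 355 to 577 CPM. Of 11 monocyte and macrophage markers, 8 were called higher and 3 lower under both labels. Their sums overlapped, at 1174 to 1455 CPM against 1076 to 1287 CPM. The next 2 genes were named after their values were seen. C1qa, a macrophage complement gene, lay at 128 to 139 CPM in erythroblasts and 2.30 to 4.03 CPM in progenitors. Ly6c2 went the other way, with the lowest log2 fold changes of the list, -1.39 under the Plek2+/+ label and -1.68 under the Plek2-/- label. The part of these cell types in the proteasome values was not tested.

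How far these genes stand above 0 depends on the scaling. TMM factors were 0.738 to 0.772 in erythroblasts and 1.30 to 1.33 in progenitors. On library totals alone the median of all genes moved to -0.87 under the Plek2+/+ label and -0.86 under the Plek2-/- label. The calls among the 46 genes became 10 higher and 19 lower (median -0.10) and 19 higher and 14 lower (median 0.13). Over all 13365 genes tested they were then 2111 higher and 9171 lower, and 2307 higher and 8957 lower. Leaving out TMM moves all genes of a contrast by 1 shared amount by construction. The gap between the proteasome genes and the typical gene therefore changed little, at 0.77 and 0.99 on either scale. As a share of all counts, the 47 genes together took 0.504% ± 0.003 (SD, n = 2) and 0.544% ± 0.004 (SD, n = 2) in erythroblasts labelled Plek2+/+ and Plek2-/-, and 0.480% ± 0.006 (SD, n = 2) and 0.445% ± 0.028 (SD, n = 2) in progenitors. Fold changes below are on the TMM scale, and ratios within a library, which no scaling alters, are given beside them.

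**Figure D1:**
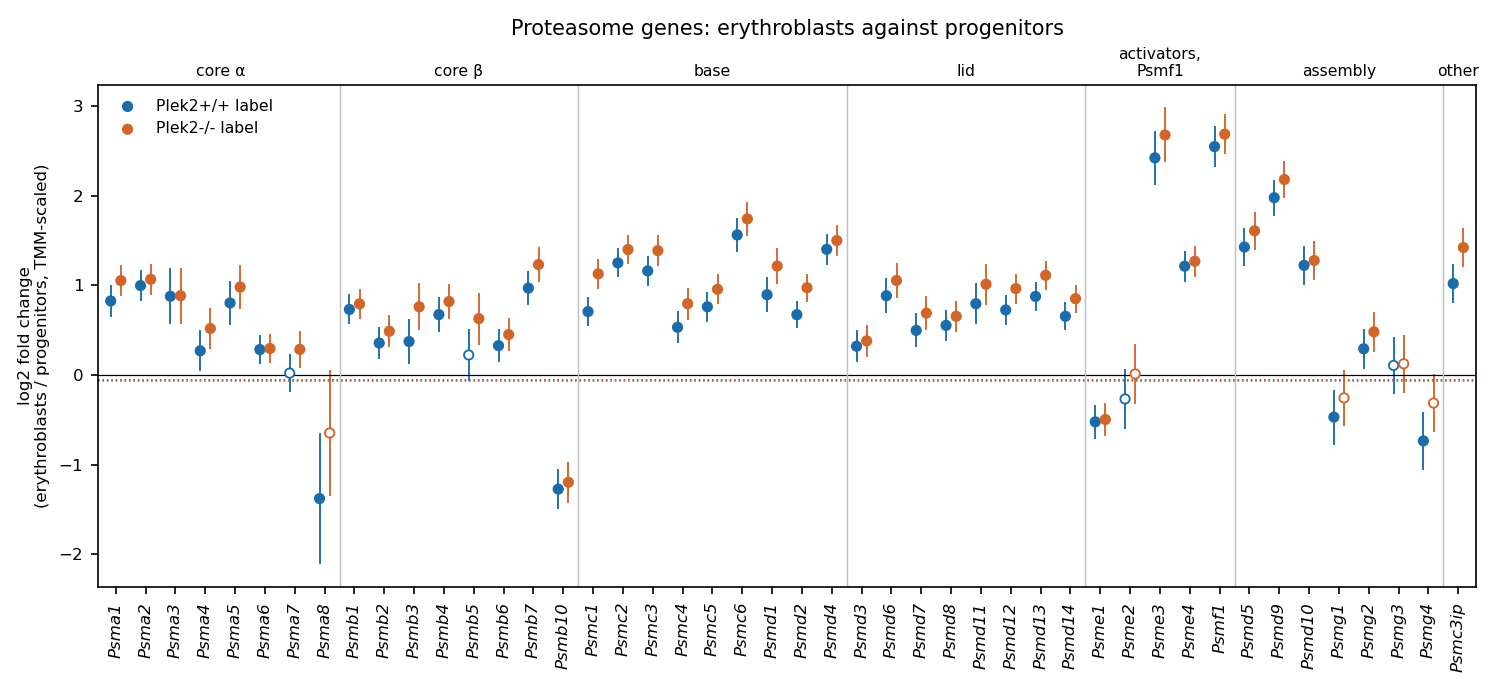
Log2 fold change of each of the 46 tested proteasome genes between erythroblasts and progenitors (vertical axis, TMM-scaled), by role class, for libraries labelled Plek2+/+ (blue) and Plek2-/- (orange). Bars are 95% confidence intervals, filled points passed the test, and the dotted lines mark the median of all genes tested (-0.06 and -0.07). Psmf1, Psme3 and Psmd9 lie highest, between 1.98 and 2.68, and Psmb10 and Psme1 lie below 0 under both labels. On library totals alone values lie lower, by 0.81 and 0.79 for the median of all genes, and the core medians fall below 0.

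Among the alpha subunits of the core, 6 of 8 were called higher under the Plek2+/+ label and 7 of 8 under the Plek2-/- label, with medians of 0.54 and 0.70 on the TMM scale; on library totals alone the medians were -0.27 and -0.09. Psma2 had the lowest adjusted p of the class. It lay at 199.5 and 198 CPM in erythroblasts labelled Plek2+/+ and at 203 and 207 CPM in those labelled Plek2-/-, against 92.4 to 103 CPM in the 4 progenitor libraries. The erythroblast libraries were all above the progenitor libraries with a wide gap, a log2 fold change of 0.996 (SE 0.08, adjusted p = 1.01e-07) and 1.07 (SE 0.08, adjusted p = 4.47e-08) under the Plek2+/+ and Plek2-/- labels. Psma7, the most abundant alpha subunit per length in progenitors, did not differ under the Plek2+/+ label beyond its spread (0.021, SE 0.10, adjusted p = 0.854) and was called higher under the Plek2-/- label (0.29), but had -0.80 and -0.50 on library totals alone.

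Psma8 is the alpha subunit of the testis proteasome and was sparse. Its counts were 17 and 17 in erythroblasts labelled Plek2+/+, 21 and 24 in those labelled Plek2-/-, 43 and 106 in progenitors labelled Plek2+/+ and 58 and 87 in those labelled Plek2-/-. All progenitor libraries lay above all erythroblast libraries. The log2 fold change was -1.38 (SE 0.34, adjusted p = 0.00253) under the Plek2+/+ label, and -0.65 (SE 0.32, adjusted p = 0.0849) under the Plek2-/- label, which missed the threshold, and the difference between the labels was not called either (0.73, SE 0.48, adjusted p = 0.462). Per length its ratio to Psma7, the subunit it replaces in testis, was 0.00304 to 0.00471 in erythroblasts and 0.00597 to 0.0106 in progenitors.

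In the beta rings, 6 of 8 tested subunits were called higher under the Plek2+/+ label and 7 of 8 under the Plek2-/- label, with medians of 0.36 and 0.69 that became -0.45 and -0.09 on library totals alone. Psmb7, which carries the trypsin-like cutting site, lay at 134 and 138 CPM in erythroblasts labelled Plek2+/+ and 135 and 155 CPM in those labelled Plek2-/-. Progenitors held 68.0 and 71.1 CPM under the first label and 58.6 and 64.8 CPM under the second. The log2 fold changes were 0.97 (SE 0.09, adjusted p = 4.22e-07) and 1.23 (SE 0.09, adjusted p = 3.54e-08). The gene shares 405 exon bases with Nek6 on the opposite strand, and the strand setting of the counting is not given in the sources used here.

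Psmb10, the interferon-inducible subunit that replaces Psmb7, ran the other way. It lay at 30.2 and 27.8 CPM in erythroblasts labelled Plek2+/+ and at 29.1 and 24.5 CPM in those labelled Plek2-/-, against 69.7 and 70.7 CPM and 65.2 and 57.5 CPM in the matching progenitors. All 4 progenitor libraries were far above all 4 erythroblast libraries. The log2 fold changes were -1.27 (SE 0.10, adjusted p = 1.44e-07) and -1.20 (SE 0.11, adjusted p = 2.69e-07), and Psmb10 was 1 of the 2 genes called lower under both labels. No other beta subunit of the 47-gene set was called lower under either label.

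Taken as a ratio per length within each library, Psmb10 stood at 0.140 to 0.199 of Psmb7 in the 4 erythroblast libraries and at 0.785 to 0.985 in the 4 progenitor libraries. The other inducible subunits were also lower relative to their constitutive counterparts in erythroblasts: Psmb9 stood at 0.0922 to 0.140 of Psmb6 in erythroblasts and 0.334 to 0.369 in progenitors. Psmb8 was at 1.08 to 1.91 times Psmb5 in erythroblasts and 5.96 to 6.42 times in progenitors, but 50% of the 50-base stretches of the Psmb5 transcript also occur in other genes, so its level, and this ratio, are uncertain. The summed level of 14 interferon-response genes was higher in erythroblasts, at 3930 to 4689 CPM against 1856 to 1997 CPM in progenitors, with 9 of the 14 called higher and 5 lower in erythroblasts under the Plek2+/+ label. Rsad2, an antiviral protein, made up much of that sum, at 2227 to 2615 CPM in erythroblasts and 14.8 to 26.8 CPM in progenitors. Without Rsad2, left out after its values were seen, the sums overlapped, at 1703 to 2097 CPM against 1830 to 1971 CPM. The B cell and the T and NK cell markers, which lay lower in erythroblasts as Psmb10 did, are given above. The part of these genes in the level of Psmb10 was not tested.

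All 9 genes of the base were called higher under both labels, with medians of 0.89 and 1.21, the highest of any ring or cap class; on library totals alone the medians were 0.08 and 0.43, with 4 called higher and 1 lower and then 7 higher and 0 lower. Psmc6, a base ATPase, led the class. It was measured at 335 and 347 CPM in erythroblasts labelled Plek2+/+ and 372 and 392 CPM in those labelled Plek2-/-, against 106 to 123 CPM in progenitors. The 4 erythroblast libraries stood far above the 4 progenitor libraries, and the log2 fold changes were 1.56 (SE 0.09, adjusted p = 2.98e-09) and 1.74 (SE 0.09, adjusted p = 9.48e-10).

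The next 3 base genes were named after their values were seen. Psmd4, the ubiquitin receptor of the base, had log2 fold changes of 1.40 and 1.498. Psmc3, an ATPase, had 1.16 and 1.39, and was the most abundant proteasome gene per length in erythroblasts, at 231 CPM per kilobase against 95.6 in progenitors, where it ranked 5th. Psmc3 overlaps Slc39a13 on the opposite strand by 215 bases. The smallest change in the class was that of Psmc4, another ATPase, with 0.53 and 0.79, and on library totals alone its value under the Plek2+/+ label was -0.28.

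All 8 lid genes were called higher under both labels, with medians of 0.69 and 0.91, below those of the base. The lid medians became -0.13 and 0.12 on library totals alone. Psmd13, a structural lid subunit with the lowest adjusted p of the class, lay at 165 and 163 CPM in erythroblasts labelled Plek2+/+ and 188 and 186 CPM in those labelled Plek2-/-, against 83.0 to 91.6 CPM in the 4 progenitor libraries. The groups did not overlap, and the log2 fold changes were 0.88 (SE 0.07, adjusted p = 2.34e-07) and 1.11 (SE 0.08, adjusted p = 1.94e-08). It shares 342 bases with Sirt3 on the opposite strand. Psmd3, the scaffold subunit with the smallest change in the class, had 0.32 and 0.38, and -0.50 and -0.41 on library totals alone.

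Within each library the mean level per kilobase of the base genes was 1.45 and 1.501 times that of the core in erythroblasts labelled Plek2+/+ and 1.49 and 1.57 times in those labelled Plek2-/-. In progenitors this ratio was 0.964 and 0.956, then 0.947 and 0.982. The lid stood at 0.909 to 0.945 of the core in erythroblasts and 0.784 to 0.822 in progenitors. Both ratios were higher in all 4 erythroblast libraries than in any progenitor library, and the gap was wider for the base. The core mean takes in all 17 core genes. Psmb11, Psma8, Psmb10 and the 5 genes whose levels are called uncertain below all lie under that mean and lower it. Whether the base lay above the core in erythroblasts is therefore not shown, only that the ratio differed between the populations.

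**Figure D2:**
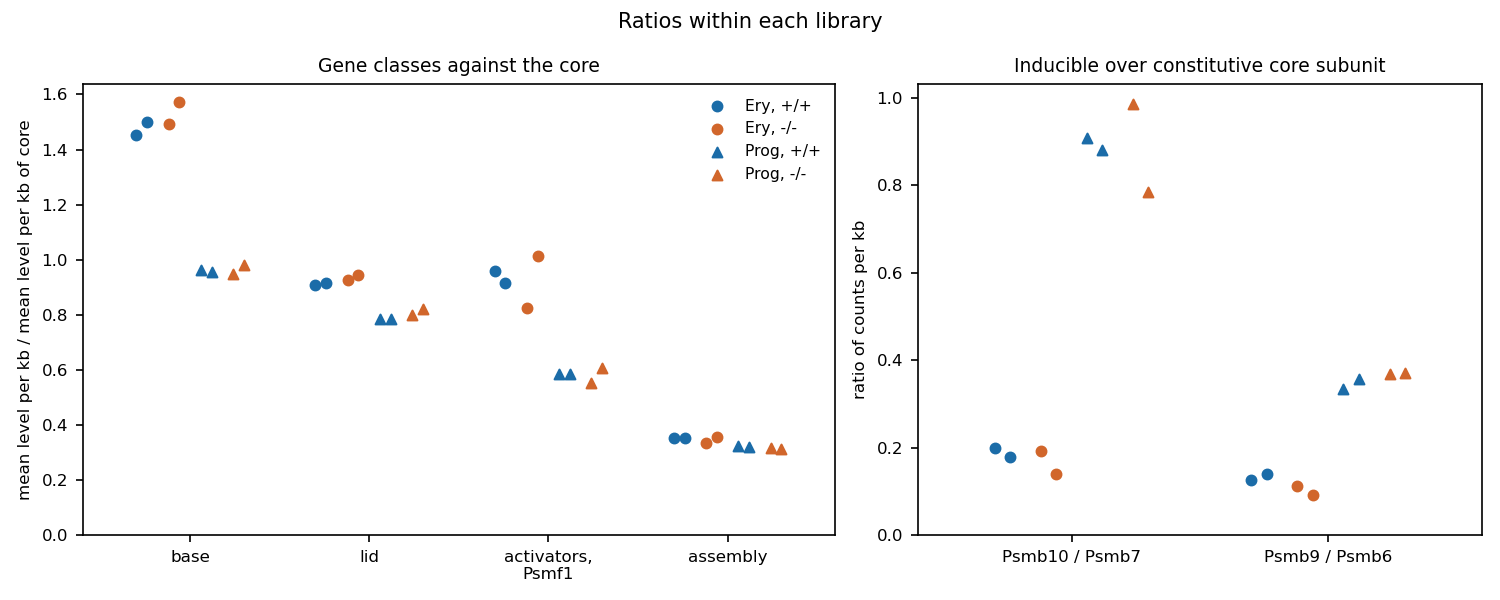
Ratios within single libraries, which library scaling does not change. The left panel gives the mean level per kilobase of 4 gene classes over that of the core, and the right panel the ratio of counts per kilobase of an inducible over a constitutive beta subunit; circles are erythroblasts, triangles progenitors, blue the Plek2+/+ and orange the Plek2-/- label, 1 point a library. The base lies at 1.45 to 1.57 in erythroblasts and 0.947 to 0.982 in progenitors, and Psmb10 over Psmb7 at 0.140 to 0.199 against 0.785 to 0.985. The core mean takes in all 17 core genes, with sparse and uncertain ones, so only the change of a class ratio between populations is read.

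The activators divided by kind. Psme3, which forms a nuclear ring that activates the core without ubiquitin, and Psme4, a large single-chain activator, were higher in erythroblasts, whereas the interferon-inducible pair was lower or did not differ beyond its spread. Values of Psme3 and Psme4 in the population comparison, and of Psmd5, Psmd10 and Psmg1 to Psmg3 below, were chosen after they were seen. Psme3 lay at 556 and 501 CPM in erythroblasts labelled Plek2+/+ and 485 and 640.4 CPM in those labelled Plek2-/-, against 92.0, 105, 78.2 and 97.8 CPM in progenitors. The lowest erythroblast library was several times the highest progenitor library. The log2 fold changes were 2.42 (SE 0.14, adjusted p = 4.84e-09) and 2.68 (SE 0.14, adjusted p = 1.76e-09), and its rank by level per length among the 47 genes was 6th in erythroblasts and 27th in progenitors.

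Psme4 lay at 494 to 528 CPM in the 4 erythroblast libraries and 204 to 223 CPM in the 4 progenitor libraries, with log2 fold changes of 1.21 (SE 0.08, adjusted p = 1.94e-08) and 1.27 (SE 0.08, adjusted p = 1.10e-08). Psmf1, the inhibitor that binds the core and blocks its activators, had the lowest adjusted p of all proteasome genes. It was at 169.6 and 194 CPM in erythroblasts labelled Plek2+/+ and 177 and 209 CPM in those labelled Plek2-/-, against 30.7, 31.6, 28.7 and 31.3 CPM in progenitors. The erythroblast libraries stood several times above the progenitor libraries, and the log2 fold changes were 2.55 (SE 0.10, adjusted p = 1.35e-10) and 2.68 (SE 0.10, adjusted p = 7.76e-11). Psmf1 ranked 29th by level per length in erythroblasts and 44th in progenitors.

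Psme1 and Psme2 encode the subunits of the interferon-inducible activator and are neighbours on chromosome 14. Psme1 (chr14:55578123-55581529, plus strand, GENCODE vM21 on GRCm38) lay at 72.0 and 69.3 CPM in erythroblasts labelled Plek2+/+ and 68.5 and 63.2 CPM in those labelled Plek2-/-, against 101, 102, 99.1 and 86.8 CPM in progenitors. All erythroblast libraries were below all progenitor libraries, and the log2 fold changes were -0.52 (SE 0.09, adjusted p = 0.000112) and -0.50 (SE 0.09, adjusted p = 0.000168). For Psme2 (chr14:55587441-55591113, minus strand), the erythroblast libraries at 10.5, 11.9, 13.0 and 10.3 CPM overlapped the progenitor libraries at 14.6, 12.5, 12.3 and 10.7 CPM, and neither contrast passed (-0.27 with adjusted p = 0.133, and 0.012 with adjusted p = 0.948). Since 59.3% of the 50-base stretches of its transcript are shared, chiefly with the copy Psme2b, its level is uncertain. Per length, Psme3 stood at 2.95 to 4.23 times Psme1 in erythroblasts and 0.330 to 0.470 times in progenitors, so the order of these activators was reversed between the populations.

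**Figure D3:**
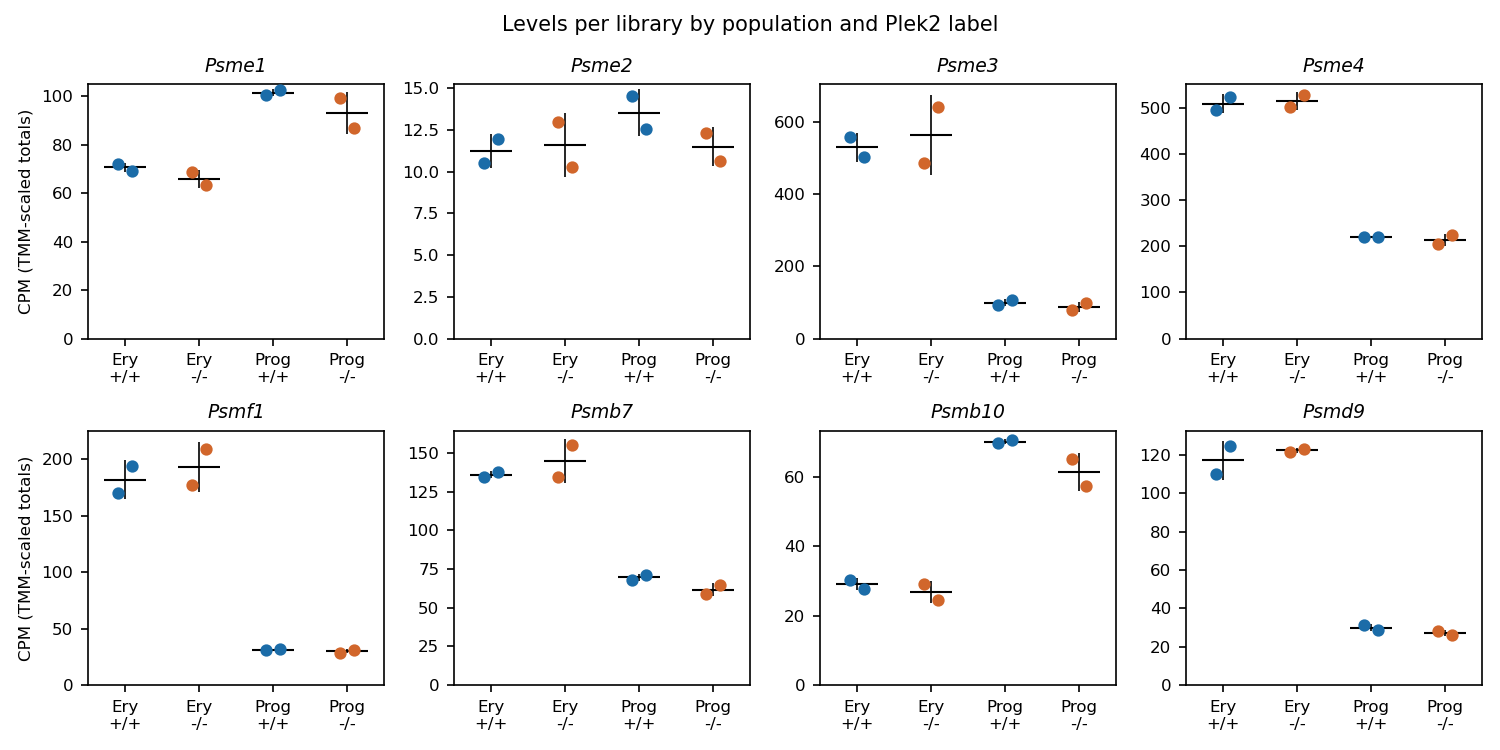
Levels of 8 proteasome genes in each of the 8 libraries (CPM on TMM-scaled totals; Ery, erythroblasts; Prog, progenitors; +/+ and -/-, Plek2 label). Points are libraries, horizontal lines group means and vertical lines 1 SD (n = 2). Psme3, Psme4, Psmf1, Psmb7 and Psmd9 are higher in erythroblasts, Psme1 and Psmb10 lower, and Psme2 overlaps; on library totals alone Psme2 would be lower under the Plek2-/- label too (-0.77).

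The assembly factors of the set are described by the particle they build, a textbook split of the class made for description only. The 3 chaperones of the base in the set, Psmd5, Psmd9 and Psmd10, were all called higher under both labels. Their medians were 1.43 and 1.61, and they were higher on library totals alone as well. Psmd9 lay at 110.0 and 124 CPM in erythroblasts labelled Plek2+/+ and 122 and 123 CPM in those labelled Plek2-/-, against 31.1, 28.5, 28.3 and 25.8 CPM in progenitors. The erythroblast libraries lay close together and several times above the progenitor libraries, with log2 fold changes of 1.98 (SE 0.09, adjusted p = 5.37e-10) and 2.18 (SE 0.09, adjusted p = 2.09e-10). Psmd9 overlaps the gene model Gm26745 on the opposite strand by 1849 bases, and how reads from that stretch were counted is not known. Psmd5 had 1.43 and 1.61, and Psmd10, which lies on the X chromosome, 1.22 and 1.28.

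The 4 chaperones of the core in the set, Psmg1 to Psmg4, had medians of -0.18 and -0.07, close to those of all genes (-0.06 and -0.07). Psmg4 lay at 9.49 and 7.40 CPM in erythroblasts labelled Plek2+/+ and 9.70 and 9.59 CPM in those labelled Plek2-/-, against 13.0, 15.1, 11.8 and 12.2 CPM in progenitors. Its erythroblast libraries were all below its progenitor libraries, and the difference passed under the Plek2+/+ label (-0.74, SE 0.15, adjusted p = 0.000641) but not under the Plek2-/- label (-0.31, SE 0.15, adjusted p = 0.0742); the difference between the labels was not called (0.42, SE 0.21, adjusted p = 0.320). Psmg1, with which Psmg2 pairs, was called lower under the Plek2+/+ label alone (-0.47, against -0.26), and the difference between the labels was not called (0.21, SE 0.20, adjusted p = 0.623). Psmg2 was called higher under both labels (0.29 and 0.48), but its values were -0.52 and -0.31 on library totals alone. Psmg3 was called under neither (0.11 and 0.12, or -0.71 and -0.66 on library totals alone). The ratio of Psmd9 to Psmg1 per length was 2.002 to 3.02 in erythroblasts and 0.425 to 0.471 in progenitors. Psmc3ip, the recombination protein, had 1.02 (SE 0.10, adjusted p = 9.87e-07) and 1.42 (SE 0.10, adjusted p = 3.51e-08), and overlaps Mlx on the opposite strand by 385 bases.

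Promoter sequences are shown for the 3 genes that rose most, Psmf1, Psme3 and Psmd9, and for Psmb10, which fell. They are RefSeq sequences on GRCm38.p6, written 5′ to 3′ on the strand of the gene and ending just before the start RefSeq gives. The Psmb10 sequence stops 52 bases short of that start, where the first GENCODE vM21 exon begins, and other annotated Psmb10 transcripts start further downstream. Capitals mark matches to the motifs listed below.
Psmf1 (chr2:151741311-151741510, minus strand): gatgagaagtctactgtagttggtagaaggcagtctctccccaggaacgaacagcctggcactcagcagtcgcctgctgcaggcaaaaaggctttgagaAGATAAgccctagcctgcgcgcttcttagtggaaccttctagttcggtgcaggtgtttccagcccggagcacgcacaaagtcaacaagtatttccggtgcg
Psme3 (chr11:101316013-101316212, plus strand): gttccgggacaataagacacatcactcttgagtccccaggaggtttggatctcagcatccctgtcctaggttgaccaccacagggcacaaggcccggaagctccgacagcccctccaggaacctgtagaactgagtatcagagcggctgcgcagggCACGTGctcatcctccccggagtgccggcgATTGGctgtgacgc
Psmd9 (chr5:123227990-123228189, plus strand): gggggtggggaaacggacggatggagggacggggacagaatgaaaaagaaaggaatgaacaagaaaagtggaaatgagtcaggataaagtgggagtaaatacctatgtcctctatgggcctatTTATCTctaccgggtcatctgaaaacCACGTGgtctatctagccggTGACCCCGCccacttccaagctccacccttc
Psmb10 (chr8:105938445-105938592, minus strand): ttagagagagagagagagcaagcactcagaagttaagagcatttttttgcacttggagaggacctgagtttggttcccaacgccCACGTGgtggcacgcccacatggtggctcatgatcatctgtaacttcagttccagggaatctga
The Psmf1 and Psmd9 sequences lie inside longer gene spans of GENCODE vM21 (chr2:151715812-151744186 and chr5:123169413-123250131), and none of the 4 overlaps an annotated exon. In Psmf1 a GATA site (AGATAA) starts 101 bases before the gene's start. Psmd9 holds an antioxidant response element (TGACNNNGC) 31 bases before the start, an E-box (CACGTG) at 51 bases and a GATA site on the opposite strand at 77 bases. Psme3 has an E-box at 44 bases and an NF-Y box (CCAAT) on the opposite strand at 14 bases, and Psmb10 an E-box 64 bases before the end of the printed sequence, which is 116 bases before its RefSeq start.

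Each motif was searched for in all proteasome genes with a RefSeq promoter entry. On both strands of the full RefSeq windows, all of equal length, the antioxidant response element, which Nfe2l1 and Nfe2l2 bind, was found in 6 of 42 windows of 39 proteasome genes (14.29%) and in 12.39% of all 32851 windows. The genes were Psmb5, Psmb6, Psmc6, Psmd12, Psmd9 and Psme4. The NF-Y box was in 33.33% of their windows and 37.41% of all, the GATA site in 7.143% and 11.18%, the E-box in 9.524% and 7.15%, and a STAT site (TTCNNNGAA) in 4.762% and 8.298%. A match in these windows is a description of the letters and says nothing of binding.

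Many proteasome transcripts have processed pseudogene copies. Among the constitutive core genes, the 5 with over 20% of their 50-base stretches shared with other genes lay at 4.54 to 54.2 CPM per kilobase in erythroblasts and 2.46 to 41.2 in progenitors. The 9 with less sharing lay at 69.3 to 225 and 33.9 to 191 CPM per kilobase. These sets did not overlap in erythroblasts but overlapped in progenitors. Whether shared reads were dropped in the counting is not given in the sources used here. Levels of Psma3, Psma4, Psma5, Psmb3 and Psmb5 are therefore uncertain. The part of the shared stretches in these levels was not tested.

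Next, libraries labelled Plek2-/- were compared with those labelled Plek2+/+ within each population. In erythroblasts none of the 46 tested genes was called by edgeR in either direction, where 2.84% of all genes were called (0.18% higher, 2.66% lower). DESeq2 and limma-voom also called 0. At an unadjusted p below 0.05 there were 2 genes, beside 14.7% of all genes. The values leaned to one side: 42 of 46 log2 fold changes were above 0 (52.5% of all genes), with a median of 0.10 beside 0.01 for all genes. In 20 genes both Plek2-/- libraries lay above both Plek2+/+ libraries (21.5% of all genes), and in 1 below (23.9% of all genes). The count above was thus higher than the background share and the count below lower, on levels scaled over all 8 libraries.

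The lowest adjusted p in erythroblasts belonged to Psmd12, a lid subunit named here after its value was seen. It lay at 76.6 and 78.1 CPM in erythroblasts labelled Plek2+/+ and 94.7 and 92.0 CPM in those labelled Plek2-/-, without overlap, a log2 fold change of 0.28 (SE 0.09, adjusted p = 0.132). The gene of each class with the highest mean CPM over all 8 libraries had a confidence interval that held 0. Psma1 had 0.17 (95% confidence interval -0.033 to 0.36), Psmb4 0.11 (-0.089 to 0.31), Psmd1 0.20 (-0.014 to 0.42) and Psmd8 0.0092 (-0.19 to 0.21). Psme4 had 0.026 (-0.18 to 0.23), Psmd5 0.099 (-0.12 to 0.32) and Psmc3ip 0.15 (-0.093 to 0.39). Psme3, whose mean CPM exceeded that of Psme4 in erythroblasts, had 0.10 (-0.18 to 0.38) and was named after its value was seen. The inducible genes had values of -0.11 for Psmb10, -0.092 for Psme1 and 0.056 for Psme2, and the sparse Psma8 had 0.59 (-0.21 to 1.38).

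In progenitors 1 of the 46 genes was called, and it was lower, where 4.91% of all genes were called (4.5% higher, 0.402% lower). This was Psmc1, an ATPase of the base, which opens the alpha-ring gate. It lay at 77.2 and 77.2 CPM in progenitors labelled Plek2+/+ and 60.9 and 60.5 CPM in those labelled Plek2-/-, 2 tight pairs without overlap, and the log2 fold change was -0.31 (SE 0.07, adjusted p = 0.0369). The call was lost when either Plek2+/+ progenitor library was left out (adjusted p = 0.400 and 0.523) while the fold change stayed between -0.31 and -0.30. Psmc1 (chr12:100110154-100123405, plus strand) lies on the same chromosome as Plek2, and 17.6% of its 50-base stretches are shared with other genes. Psma3 and Psma6 lie on chromosome 12 too and were not called in progenitors (0.055 with adjusted p = 0.884, and 0.030 with adjusted p = 0.868). Any part of the chromosome was not tested.

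The progenitor values leaned the other way from those in erythroblasts. Of the 46 genes, 11 had a value above 0 (47.3% of all genes), and the median was -0.05 beside -0.01 for all genes. Unadjusted p-values were below 0.05 for 2 genes (17.3% of all genes). In 0 genes both Plek2-/- libraries lay above both Plek2+/+ libraries (19.0% of all genes), and in 20 below (33.2% of all genes). These 2 counts and their shares use levels scaled over all 8 libraries, unlike the fold changes, which come from the 4 progenitor libraries. In a fit of all 8 libraries the median of all genes was -0.05. Psma1 had -0.029, Psmb4 -0.0013, Psmd8 -0.060, Psme4 0.0028, Psmd5 -0.049 and Psmc3ip -0.22. Psmb10 had -0.15, Psme1 -0.086, Psme2 -0.19 and Psma8 -0.11. The neutrophil marker sum given above moved with the label in both populations, down in erythroblasts and up in progenitors, with 8 of 14 markers called lower in erythroblasts and 14 of 14 higher in progenitors. In erythroblasts 5 of 10 B cell markers were called lower and 1 higher (median -0.82), their sum being 197 and 179 CPM under the Plek2+/+ label against 157 and 146 CPM, and 1 of 7 T and NK cell markers was called lower (median -0.78). In progenitors 1 of 10 B cell markers and 4 of 14 interferon-response genes were called higher, with medians of 0.15 and 0.23. The part of these genes in the proteasome values was not tested.

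**Figure D4:**
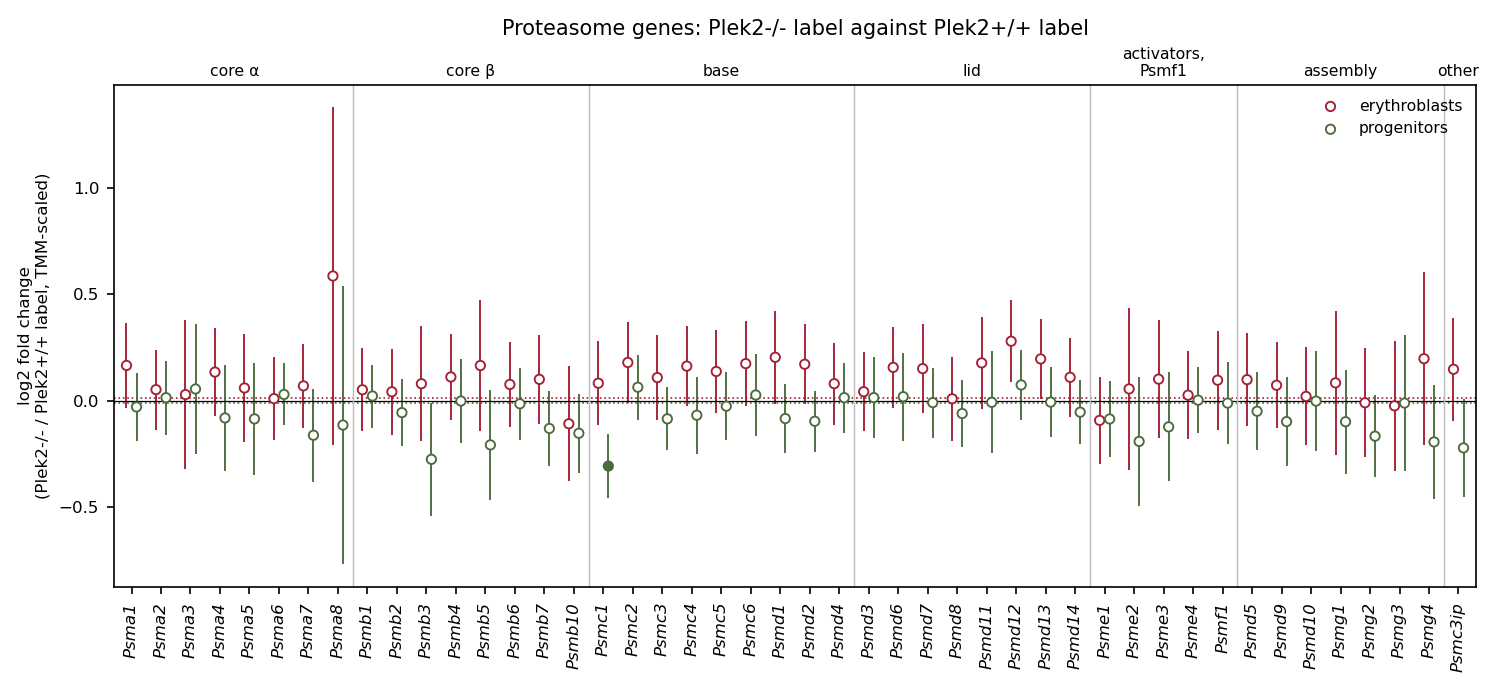
Log2 fold change of each of the 46 tested proteasome genes between libraries labelled Plek2-/- and Plek2+/+ (vertical axis, TMM-scaled), by role class, in erythroblasts (red) and progenitors (green). Bars are 95% confidence intervals and the dotted lines the medians of all genes tested (0.01 and -0.01). The single filled point is Psmc1 in progenitors, at -0.31; the erythroblast values have a median of 0.10 and the progenitor values one of -0.05.

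The difference between the genotype effects in erythroblasts and progenitors was tested directly in 1 fit of all 8 libraries. Psmc1 was the 1 gene called, with a positive difference of 0.42 (SE 0.11, adjusted p = 0.0376), where 5.55% of all genes were called (0.232% higher, 5.32% lower). Its erythroblast levels were 121 and 131 CPM under the Plek2+/+ label and 129 and 136 CPM under the Plek2-/- label, which overlap, whereas the progenitor levels did not. It was not called with DESeq2's size factors in edgeR (adjusted p = 0.0604), with DESeq2 (adjusted p = 0.0581), or after leaving out any 1 of the 8 libraries (adjusted p = 0.0558 to 0.251). All 46 differences were above 0, where 55.3% of all genes were, and 8 had an unadjusted p below 0.05 (18.2% of all genes). The log2 fold change of erythroblasts over progenitors was accordingly higher under the Plek2-/- label for all 46 genes, which for genes below 0 under the Plek2+/+ label, such as Psma8 and Psmg4, brought it nearer to 0; the median difference was 0.19 beside 0.04 for all genes. The 14 neutrophil markers all had a negative difference that was called. So did 4 of 10 B cell markers and 2 of 14 interferon-response genes, with list medians of -1.004 and -0.28, and none of 8 T and NK cell markers (median -0.54; 3 had an unadjusted p below 0.05). Their part was not tested.

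Genes that work beside the proteasome were read from 3 lists. Between populations, 36.0% of all genes were called higher and 37.8% lower under the Plek2+/+ label, and 37.5% and 39.2% under the Plek2-/- label. Of 13 other proteasome proteins, 8 were called higher and 3 lower in erythroblasts under the Plek2+/+ label, and 7 and 2 under the Plek2-/- label, with medians of 0.41 and 0.29. The deubiquitinase Usp14, which trims ubiquitin on the cap, was higher (1.34 and 1.63), and Psmb8 lower (-1.59 and -1.87). Of 12 genes that control proteasome gene transcription, 10 were called higher and 1 lower, and then 9 and 1, with medians of 0.69 and 0.75. Foxo3, a factor of late erythroblasts, led (2.64 and 2.57), and Stat3, which acts downstream of cytokine receptors, was lower (-0.75 and -1.46). Nfe2l1, the factor that restores proteasome gene expression when the proteasome is inhibited, had 0.93 and 1.08 and was named after its value was seen.

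Of 15 ubiquitin genes and shuttle factors, 8 were called higher and 4 lower under the Plek2+/+ label, and 10 and 3 under the Plek2-/- label, with medians of 0.31 and 0.50. In either direction, 73.8% and 76.7% of all genes were called under these labels. Ubqln2, a shuttle that carries ubiquitin-tagged proteins to the proteasome, was lower (-2.09 and -1.69). Between Plek2 labels, 1 gene of these 3 lists was called, where 2.84% of all genes were called in erythroblasts and 4.91% in progenitors. Stat3 was lower in erythroblasts labelled Plek2-/- (-0.46, SE 0.10, adjusted p = 0.0286), was not called in progenitors (0.28, SE 0.08, adjusted p = 0.0939), and the difference between the populations passed (-0.71, SE 0.13, adjusted p = 0.00493).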

How the data were processed

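Per the labels' protocols, total RNA from sorted marrow cells was sequenced on an Illumina instrument; the tools listed in the submitters' processing notes are STAR 2.5.2a, HTSeq 0.6.1pl, cutadapt 1.13 and DESeq2 1.14.1, with build mm10. Which annotation and strand setting were used is not stated in the labels or files. The deposited raw table holds counts, whole numbers of reads per gene and library. The other table the authors deposited holds a normalized signal that equals these counts divided by 1 size factor per library, and it was not tested.

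All genes passing filterByExpr at its defaults were scaled with TMM and tested by edgeR's quasi-likelihood test (edgeR 4.0.16, R 4.3.3), with Benjamini-Hochberg adjustment over all genes tested. Plek2 labels were compared within each population in a fit of its own 4 libraries. Populations, and the difference between the genotype effects, came from 1 fit of all 8 libraries as 4 groups. The biological coefficient of variation was 8.12%, 7.17% and 7.62% in these fits. The scripts were tested on simulated data. Positions come from GENCODE vM21 (GRCm38, which is mm10); all 47 genes were placed. Levels per kilobase use the principal transcript. Shared stretches are runs of 50 bases found in transcripts of other genes. Promoter windows come from RefSeq (GRCm38.p6) and matched 39 genes by symbol.

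Counts of the 2 libraries of a group differed beyond sampling noise in all 4 groups (chi-square over its degrees of freedom 5.92 to 16.5), and each was used as its own sample. The labels mention no molecular identifiers, and floors cover counting error alone. Same-numbered libraries did not deviate together in a way that pairs them (correlations of deviations -0.12 to 0.18). The genes and lists were chosen with earlier results of these data known.

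Genes given in full are, in each comparison, every called gene where 6 or fewer were called, otherwise the called gene with the lowest adjusted p in each class and direction, and the most abundant tested gene of a class without a call; Psmb10, Psme1, Psme2, Psma8, Psmb11 and Psmc3ip are always named. From the added lists the called gene with the lowest adjusted p in each direction is named, except 1 that is not reported here. Alternatives were DESeq2's size factors, library totals alone, no filter, DESeq2 1.42.0, limma-voom (limma 3.58.1), a fit of all 8 or of 4 libraries, a replicate block, totals without the 20 most abundant genes, and leaving out each library.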

Additional observations from a re-analysis of the deposited data

Results flagged for a closer look

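The genotype effect on Psmc1, an ATPase of the proteasome base, differed between the populations: the log2 fold change between the Plek2-/- and Plek2+/+ labels was 0.42 higher in erythroblasts than in progenitors (SE 0.11, adjusted p = 0.0376, edgeR's quasi-likelihood test of the difference in 1 fit of 8 libraries). Both progenitor libraries labelled Plek2-/- lay below both labelled Plek2+/+, and the erythroblast libraries overlapped. Leaving out any 1 of the 8 libraries ended the call, with values of 0.29 to 0.45. The neutrophil marker sum, which moved in opposite directions with the label in the 2 populations, B cell markers, of which 4 of 10 had a called negative difference, and the sex of the mice moved with the label as well, and their part was not tested.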

How the results depend on the processing

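Library totals alone, without TMM, changed most: the population counts became 10 higher and 19 lower (median -0.0999) under the Plek2+/+ label and 19 higher and 14 lower (median 0.133) under the Plek2-/- label. Of all 13365 genes tested, 2111 were then called higher and 9171 lower under the first label, and 2307 and 8957 under the second. Values then reversed for Psma7 (-0.795 and -0.503), Psmb5 (-0.592 and -0.158), Psmd3 (-0.495 and -0.408), Psmg2 (-0.524 and -0.306) and Psmg3 (-0.707 and -0.663) under both labels, for Psmc4 under Plek2+/+ (-0.284) and for Psme2 under Plek2-/- (-0.775). This setting moves all genes of a comparison by 1 shared amount by construction, 0.81 on the log2 scale under Plek2+/+. The same setting gave a progenitor genotype median of -0.114 and -0.0570 for Psme4. Without the filter on low counts, 5 proteasome genes were called lower in erythroblasts under Plek2-/- (median 0.853), where 5459 of all 17527 genes were. Psme2 had -0.0192 there and Psmb4 had 0.00439 for the progenitor genotype effect. With all 8 libraries in the genotype fit, Psmd8 had -0.000156 in erythroblasts and Psme4 -0.0390 in progenitors. DESeq2's size factors and DESeq2 called 0 genes for the difference between genotype effects. Over totals without the 20 most abundant genes, the proteasome share of counts was 0.623% and 0.663% in erythroblasts labelled Plek2+/+ and Plek2-/- and 0.518% and 0.488% in progenitors. The cause of the changes other than those of scaling was not tested.

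Leaving out 1 library gave these ranges. In erythroblasts the genotype effect was -0.24 to 0.0038 for Psmb10, -0.0245 to 0.22 for Psmd5, -0.0521 to 0.0548 for Psmd8, -0.13 to 0.21 for Psme2 and -0.0204 to 0.0563 for Psme4. In progenitors 0 to 7 genes were called lower: 0 without either Plek2+/+ library, 7 without replicate 1 and 3 without replicate 2 of Plek2-/-. Over all genes, too, fewer were called lower without either Plek2+/+ library and more without either Plek2-/- library. Each of these fits left 1 library in a group, so no conclusion about proteasome genes is drawn from these counts. The progenitor median was -0.10 to -0.0016, and the values were -0.0997 to 0.0397 for Psma1, -0.43 to 0.38 for Psma8, -0.13 to 0.12 for Psmb4, -0.14 to 0.0336 for Psmd5, -0.12 to 0.0031 for Psmd8, -0.19 to 0.0086 for Psme1 and -0.0608 to 0.0626 for Psme4. Between populations the median was 0.70 to 0.82 under Plek2+/+ and 0.86 to 0.94 under Plek2-/-, with Psma7 at -0.0082 to 0.13 under the first and Psme2 at -0.14 to 0.17 and Psmg3 at -0.0715 to 0.34 under the second. For the difference between genotype effects, 0 genes (0 to 0) were called in all 8 fits, the median was 0.0994 to 0.26, and the values were -0.0885 to 0.17 for Psmb10, -0.0109 to 0.28 for Psmd5, -0.0201 to 0.17 for Psmd8, -0.0728 to 0.12 for Psme1 and -0.0501 to 0.12 for Psme4.

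With the replicate number as a block, the counts of called proteasome genes were unchanged in all 5 comparisons (0 and 0, 0 and 1, 37 and 5, 39 and 2, 1 and 0 higher and lower). Over all genes the block gave 52 higher and 527 lower in erythroblasts and 720 and 93 in progenitors. The crossed pairing of the progenitor libraries, added after seeing the data, gave 1061 and 266 over all genes and 1 proteasome gene lower. With 2 libraries a group, small genotype differences could be missed. A confidence interval that held 0 does not show that a gene was unchanged, and the interval was widest for the sparse Psma8.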
